A study of Mus musculus with 50 samples.

Results

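The 10 genes described here encode 4 subunits of the transcription factor NF-kB (Nfkb1, Nfkb2, Rel and Relb) and 6 proteins that restrain or redirect it (Nfkbia, Nfkbie, Nfkbiz, Tnfaip3, Bcl3 and Birc3). They were taken by name from 21954 genes in the count tables, and all 10 were found. Rela, the subunit that is not in the list, is given beside them where the subunits are set against each other.

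NF-kB is a dimer of Rel family proteins. In resting cells IκB proteins hold it in the cytoplasm, and signals from the TNF receptor, the IL-1 receptor or Toll-like receptors degrade IκB and let it enter the nucleus. Among the genes that it then transcribes are several of its own subunits and inhibitors, so that the messenger RNA of the feedback genes is a common readout of recent signalling. In macrophages the pathway is known for the response to bacterial lipopolysaccharide, and in wounds for the early inflammatory response.

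RNA-seq was performed on mouse tissue around the wound bed of the amputated distal terminal phalanx (P3, the bone at the tip of the digit) and on cultured macrophages, 50 libraries in all. The digits came from young adult male C57Bl/6 mice with the third digit of both hindlimbs amputated. The macrophages were grown from the bone marrow of female C57BL/6 mice in medium with L929-conditioned medium. There were 29 non-regenerative digits, 3 each at 0, 3, 6, 12 and 24 h and at 3, 14 and 21 d after amputation and 5 at 7 d, and 12 intermediate digits, 3 each at 0 and 24 h and at 14 and 21 d. The labelled share of P3 removed was 60% to 80% in the non-regenerative digits, with 17 of 29 above 67%, and 41% to 55% in the intermediate digits. No genetic change is named for the mice, and all digits, also those at 0 h, had been amputated. M0 macrophages were left in basal medium, M1 macrophages received IFN-γ with LPS for 24 h and M2 macrophages IL-4 for 24 h, with 3 libraries each. The labels give no time for M0, and nothing says whether the 3 libraries of a state came from separate cultures or mice, so the p-values measure the spread between these libraries only. The digits are a mixture of cell types, in which fewer cells of a type and less RNA per cell cannot be told apart.

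The genes lie on 9 chromosomes of GRCm38. Among the subunits, Nfkb1 (p105, cut to p50) is at chr3:135584655-135691547 on the minus strand, Nfkb2 (p100, cut to p52) at chr19:46304320-46312385 on the plus strand, Rel (c-Rel) at chr11:23736847-23770970 on the minus strand and Relb at chr7:19606217-19629438 on the minus strand. The classical inhibitors Nfkbia (IκBα) and Nfkbie (IκBε) are at chr12:55489410-55492647 on the minus strand and chr17:45555703-45563169 on the plus strand. The ubiquitin-editing enzyme Tnfaip3 (A20) is at chr10:19000910-19015657 and the ubiquitin ligase Birc3 (cIAP2) at chr9:7848699-7873186, both on the minus strand. The nuclear IκB proteins Bcl3 and Nfkbiz (IκBζ) are at chr7:19808462-19822770 and chr16:55811375-55838899, again on the minus strand. Reads of some members may be shared with other genes. Birc3 has a close paralog in Birc2, Nfkb2 overlaps Psd on the other strand, and Bcl3 overlaps antisense transcripts. Whether the counting used strand is not given in the sources used here.

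Stretches before annotated starts of transcription are shown because all members were called higher in M1 macrophages, and the capitals mark matches to the kappa B consensus, the DNA motif bound by NF-kB. The 250 bases before each start, from RefSeq promoters of GRCm38.p6, were searched on both strands. Of 32851 promoters, 7.25% held a match. Of the 7 members with a promoter in that table, 5 held a match, and these 7 genes have 10 starts, of which 7 held one. Those of Nfkb2 and Tnfaip3 precede starts that lie inside the spans given above, which begin at the outermost start. Each stretch is written 5′ to 3′ on the strand of its gene, and in Rel and in the first stretch of Nfkb2 the capitals are an overlapping pair of matches.
Nfkbia, chr12:55492652-55492691, minus strand: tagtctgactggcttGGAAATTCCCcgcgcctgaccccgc
Nfkbie, chr17:45555579-45555618, plus strand: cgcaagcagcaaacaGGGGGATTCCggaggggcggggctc
Tnfaip3, chr10:19015511-19015550, minus strand: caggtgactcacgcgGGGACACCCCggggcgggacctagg
Tnfaip3, chr10:19015411-19015437, minus strand: actggaatttccatcGGAAATCCCCct
Rel, chr11:23771037-23771076, minus strand: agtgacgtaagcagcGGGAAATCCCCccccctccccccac
Nfkb2, chr19:46304683-46304722, plus strand: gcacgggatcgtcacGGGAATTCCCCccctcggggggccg
Nfkb2, chr19:46304711-46304736, plus strand: ctcggggggccgaaaGGGGCTTTCCc
No match was found in these windows of Bcl3 and Birc3, and Nfkb1, Relb and Nfkbiz are not in the promoter table. Matches before further starts of Nfkb2, in chr19:46305445-46305483 and chr19:46305690-46305729, are in the counts above but not printed. A match is a run of letters, and binding was not measured.

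The total of expected counts was 15683424 to 27904773 in macrophage libraries and 1468749 to 13011782 in digits, so low counts limit the digits more. In digits a pair of libraries stood apart, the non-regenerative digit at 14 d replicate 2, with a median Spearman correlation of 0.634 to the other digits, and the one at 7 d replicate 2, with 0.687, against 0.812 to 0.929 in the other 39. In the latter, Relb, Nfkbie, Tnfaip3 and Bcl3 had 0 counts, and a count of 0 allows up to 3 counts. Labelled dates fall into an earlier period with 24 digits and a later one with 17, and all digits at 3 h and 12 h are of the earlier period, while the 0 h digits are 1 earlier and 2 later. The intermediate digit at 14 d replicate 1 and the non-regenerative digit at 14 d replicate 3 carry the same animal mark, date and side, so 1 of these labels may be wrong. Such repeats also occur between times. Each 12 h digit shares mark, date and side with a 0 h digit, among them the first non-regenerative one. The first 7 d digit shares them with the third 3 d digit. Keratinocyte markers were high in digits, where their summed level at 0 h was 26820 to 55460 normalized TPM in non-regenerative and 25220 to 40020 in intermediate ones, and at most 1.673 in macrophages, where Krt5 was at 0 in every library. Macrophage markers summed to 18530 to 21330 in M0, 9211 to 9875 in M1 and 8424 to 8940 in M2, with all 6 above 0 in each state.

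Levels below are normalized TPM (a share of transcripts that takes gene length into account, scaled between libraries by the median-by-ratio method), read within the macrophage table or within the digit table only, since these were normalized separately. Fold changes came from edgeR on the counts, scaled between libraries by the TMM method. Such TMM-scaled counts are given in some places beside the normalized TPM. A gene was called at an adjusted p below 0.05 over all genes tested with a change of more than 2-fold.

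In M1 macrophages all 10 members were called higher than in M0, against 20.1% of all genes tested. The inhibitors rose most, with Nfkbie, Tnfaip3 and Nfkbia 12.9-fold to 14.5-fold higher, and the subunits rose 2.35-fold to 3.80-fold. The median log2 fold change was 2.27 over the members and -0.0882 over all genes tested. In M2 macrophages 3 members were called higher, Nfkb1, Nfkbie and Tnfaip3, against 11.0% of all genes, and 1 was called lower, Nfkbiz, against 11.3%. Both comparisons share the M0 libraries.

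Among the subunits, Nfkb1 was at 84.0, 79.0 and 81.4 normalized TPM in the M0 libraries, 188, 185 and 184 in M1, and 182, 180 and 171 in M2. It was raised to about the same level in both polarized states, with a log2 fold change of 1.23 ± 0.041 (SE) in M1 (edgeR adjusted p = 3.06e-11) and 1.09 ± 0.046 in M2 (adjusted p = 4.35e-09). The direct comparison of M1 with M2 gave 0.04 ± 0.047 on the log2 scale (adjusted p = 0.405), the smallest difference of the members. Nfkb2, whose p100 protein also acts as an inhibitor before it is cut, was at 41.6, 39.8 and 42.6 in M0, 155, 149 and 156 in M1, and 62.5, 53.9 and 52.8 in M2. Its rise was a feature of M1, at 1.93 ± 0.044 (adjusted p = 1.01e-12), whereas M2 lay only 0.39 ± 0.065 above M0 (adjusted p = 0.000254), which is under the fold threshold. M1 was above M2 by 1.44 ± 0.061 (adjusted p = 2.13e-11), and the 3 groups of libraries did not overlap.

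Rel, which encodes c-Rel, a subunit of lymphoid and myeloid cells, was at 18.5, 16.9 and 17.5 in M0, 46.6, 48.6 and 44.4 in M1, and 28.2, 25.5 and 25.4 in M2. Relb, which pairs with p52 in the alternative pathway, was at 19.2, 20.5 and 19.4 in M0, 58.4, 56.4 and 59.0 in M1, and 39.6, 31.5 and 29.5 in M2. For both genes M2 fell between M0 and M1 with no overlap of libraries. Rel rose by 1.41 ± 0.047 on the log2 scale in M1 (edgeR adjusted p = 3.29e-11) and Relb by 1.61 ± 0.057 (adjusted p = 5.49e-11). In M2 the values were 0.51 ± 0.055 for Rel (adjusted p = 8.23e-06) and 0.74 ± 0.095 for Relb (adjusted p = 3.36e-05), both short of a doubling. Rela, the main activating subunit, was at 53.8 to 57.1 in M0 and 134 to 142 in M1, and at 49.0 to 52.8 in M2, just below M0, with log2 fold changes of 1.33 ± 0.042 (adjusted p = 1.96e-11) and -0.20 ± 0.047 (adjusted p = 0.00299).

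Because the subunits moved unequally, their shares of the summed subunit level shifted. Nfkb1 made up 37.8% ± 0.28 (SD, n = 3) of the 5 subunits' summed normalized TPM in M0, 31.9% ± 0.26 in M1 and 51.6% ± 1.6 in M2. Nfkb2 went the other way, with 19.2% ± 0.46 in M0, 26.4% ± 0.39 in M1 and 16.4% ± 0.66 in M2. The share of Rela was 25.7% ± 0.18, 23.7% ± 0.27 and 14.7% ± 0.37 in M0, M1 and M2, while Rel and Relb each stayed between 7.65% and 9.96%. In M2 macrophages Nfkb1, whose p50 product has no activation domain, was thus at about the level of the other 4 subunits together, and in M0 and M1 it was below it.

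**Figure D1:**
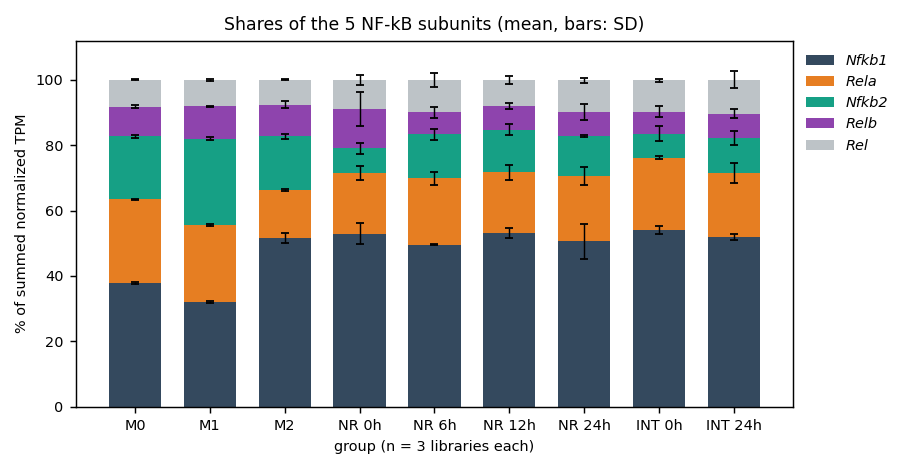
Mean share of each Rel family subunit in the summed normalized TPM of all 5 (percent, y axis), as stacked bars with SD for macrophage states and for non-regenerative (NR) and intermediate (INT) digits (x axis, n = 3 libraries each). Nfkb1 takes 51.6% of the M2 bar and 31.9% of the M1 bar, and 52.9% of that of non-regenerative digits at 0 h.

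The classical inhibitors rose far more than the subunits in M1. Nfkbia, which encodes the IκBα that retrieves NF-kB from the nucleus, was at 71.1, 71.7 and 74.6 normalized TPM in M0, 963, 904 and 911 in M1, and 141, 124 and 118 in M2. Nfkbie, which encodes the slower IκBε, was at 14.1, 13.3 and 12.6 in M0, 201, 184 and 191 in M1, and 39.6, 29.9 and 27.9 in M2. The order M0, M2, M1 held for every library of both genes. Nfkbia was 12.9-fold higher in M1 (log2 fold change 3.69 ± 0.051, edgeR adjusted p = 2.61e-14) and 1.69-fold higher in M2 (0.76 ± 0.065, adjusted p = 1.23e-06). Nfkbie was 14.5-fold higher in M1 (3.86 ± 0.058, adjusted p = 4.29e-14) and 2.33-fold higher in M2 (1.22 ± 0.12, adjusted p = 3.68e-06). Directly compared, M1 exceeded M2 by 7.13-fold for Nfkbia and by 5.83-fold for Nfkbie.

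Tnfaip3 and Birc3 act upstream, on the ubiquitin chains that carry the signal from the receptors. Tnfaip3, whose A20 protein removes such chains, was at 14.8, 13.6 and 16.04 in M0, 240, 237 and 236 in M1, and 53.3, 48.0 and 47.5 in M2. Birc3, whose cIAP2 protein builds them, was at 53.9, 52.5 and 58.0 in M0, 226, 219 and 215 in M1, and 70.8, 54.7 and 57.5 in M2. Tnfaip3 rose in both states, by 3.86 ± 0.056 on the log2 scale in M1 (14.5-fold, edgeR adjusted p = 3.36e-14) and by 1.52 ± 0.070 in M2 (2.86-fold, adjusted p = 9.10e-09). Birc3 rose by 2.10 ± 0.048 in M1 (4.30-fold, adjusted p = 9.21e-13). Its M2 libraries overlapped those of M0, and the difference of 0.18 ± 0.076 had an adjusted p of 0.0484 with a change below 2-fold. It was the single member for which the M2 and M0 libraries overlapped. Of all genes with a mean of at least 1 normalized TPM, 42.7% stood wholly above M0 and 35.5% wholly below, so separation was common.

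The nuclear IκB proteins Bcl3 and Nfkbiz bind NF-kB on DNA and can activate or repress its targets. They were the members whose levels lay on opposite sides of M0 in M1 and in M2. Nfkbiz was at 22.0, 20.8 and 24.6 in M0, 120, 127 and 110 in M1, and only 5.81, 5.55 and 4.96 in M2. It rose by 2.43 ± 0.065 in M1 (5.39-fold, edgeR adjusted p = 3.74e-12) and fell by 2.14 ± 0.086 in M2 (4.41-fold lower, adjusted p = 3.31e-09), so that M1 stood 22.2-fold above M2 (4.47 ± 0.072, adjusted p = 3.20e-15), the widest gap of the 10 genes. Bcl3, which partners p50 and p52, was at 27.2, 27.1 and 29.3 in M0, 163, 142 and 142 in M1, and 23.6, 19.7 and 17.1 in M2. In M1 it rose by 2.48 ± 0.058 (5.56-fold, adjusted p = 1.21e-12), and in M2 it lay below M0 in every library, at -0.46 ± 0.10 (adjusted p = 0.0018), which is under the fold threshold. M1 exceeded M2 by 7.14-fold.

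**Figure D2:**
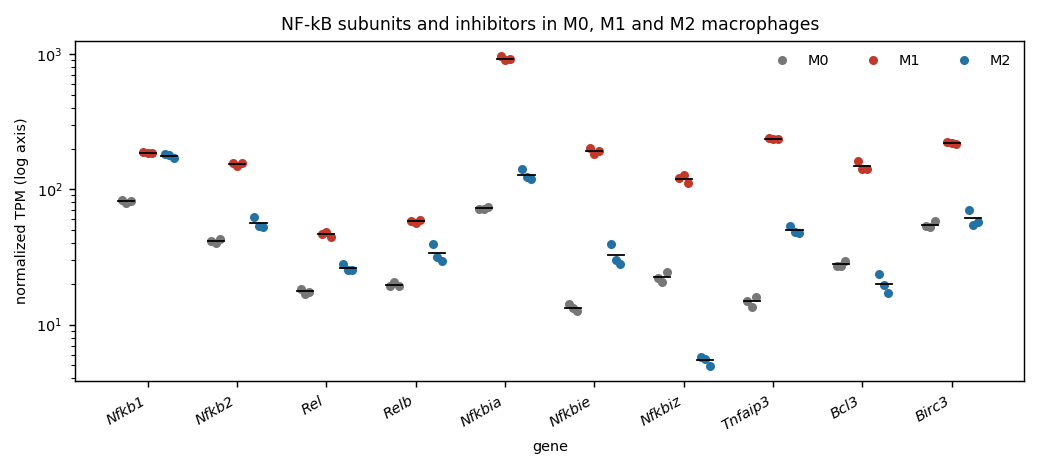
Normalized TPM of each member (y axis, log scale) in the 3 M0, 3 M1 and 3 M2 libraries (points, with a line at the mean). The M1 points stand highest for every member, closest to M2 for Nfkb1, and the M2 points of Nfkbiz, at 4.96 to 5.81, lie below those of M0, at 20.8 to 24.6. Of all genes, 42.9% stood wholly higher in M1 than in M0 and 44.7% wholly higher than in M2.

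With no fold threshold, all 10 members passed the adjusted p in M2 against M0, but so did 75.1% of all genes tested, so that this count says little about the members. In the direct comparison 7 members were called higher in M1 than in M2 and none lower, where 20.1% of all genes were called higher. These were Nfkb2, Nfkbia, Nfkbie, Nfkbiz, Tnfaip3, Bcl3 and Birc3. Rel (1.74-fold) and Relb (1.72-fold) passed the adjusted p with less than 2-fold, and Nfkb1 did not pass it. Leaving out any 1 of the 6 libraries of a comparison left these counts at 10, 4 and 7.

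**Figure D3:**
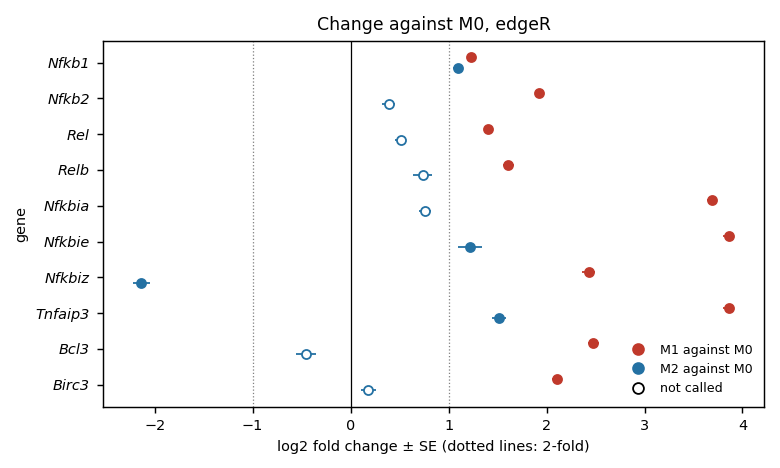
Log2 fold change of each member with its standard error from edgeR (x axis) for M1 against M0 and M2 against M0, with open points for members not called and dotted lines at 2-fold. The M1 values lie between 1.23 and 3.86, while the M2 values run from -2.14 for Nfkbiz to 1.52 for Tnfaip3.

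The ranking of the members within a state changed with polarization. In M0 the highest means were those of Nfkb1 (81.5 normalized TPM), Nfkbia (72.4) and Birc3 (54.8), and Tnfaip3 (14.8) and Nfkbie (13.3) were lowest and overlapped each other. In M1 Nfkbia led with 926, followed by Tnfaip3 (237), Birc3 (220) and Nfkbie (192), of which Nfkbie overlapped the next gene, Nfkb1 (186), while Rel was last with 46.5. Tnfaip3 and Nfkbie thus moved from the bottom of the M0 order to the top of the M1 order. In M2 Nfkb1 led with 178, then Nfkbia with 128. Birc3 (61.0), Nfkb2 (56.4) and Tnfaip3 (49.6) came next, with neighbours that overlapped, and Nfkbiz was last with 5.44.

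Other genes of the pathway, taken from lists of what their products do, were also called in M1, to be read against the 20.1% of all genes called higher. Of 11 further subunit and inhibitor genes, 9 were called higher and none lower, among them Tnip3 (log2 fold change 4.11), Zc3h12a (3.05), Tnip1 (2.82), whose products restrain NF-kB or its transcripts, and Tank (2.80). Of 26 kinases and adaptors, 12 were called higher and none lower, led by Malt1 (2.78), Irak2 (2.77), Traf2 (2.53) and Irak3 (2.50), the last an inhibitor of Toll-like receptor signalling. Of 8 ligands tested, 5 were called higher, including Il1a (6.68), Il1b (6.26) and Tnf (4.57), and 1 lower. Of 11 receptors, 5 were called higher, including Cd40 (5.18), Tnfrsf1b (3.37), Tnfrsf11a (2.62) and Cd14 (2.25), and 1 lower. Of 18 known target genes tested, 16 were called higher and none lower, including the nitric oxide synthase Nos2 (12.69), the chemokine Ccl5 (10.38) and the prostaglandin synthase Ptgs2 (9.70), while Il6 went from a mean normalized count of 1.24 to 1964.

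In M2 the same lists had fewer calls, to be read against 11.0% of all genes called higher and 11.3% lower. Of the 11 subunit and inhibitor genes 2 were called higher, Tnip3 (2.65) and Nfkbid (1.04), and none lower. Of 26 kinases and adaptors 2 were called higher, Malt1 (1.44) and Ripk2 (1.34), and 2 lower, Irak3 (-1.38) and Map3k14 (-1.07), the kinase of the alternative pathway. Of 6 ligands tested 2 were called higher, Il1a (2.25) and Tnf (1.067), and 1 lower. Of 11 receptors 3 were called higher, among them Cd40 (2.96), Il1r1 (2.26) and Il1rap (1.62), and Cd14, the LPS co-receptor, was lower (-1.79). Of 18 target genes 13 were called higher and 1 lower, including Ccl5 (4.39), Nos2 (3.81), Ccl2 (3.55) and Ptgs2 (3.38). Median log2 fold changes were 2.32, 0.820, 2.88, 0.866 and 4.85 for these 5 lists in M1, and 0.218, -0.122, -0.451, 0.219 and 1.40 in M2. With genes whose libraries of a group all held at most 3 counts set to 3 counts in the smallest library, the M1 medians of ligands and targets were 1.77 and 4.74. The lists hold 9 ligands and 20 targets. In M1 such genes were 1 ligand and 2 targets, and in M2 2 targets. They could enter the test only through their other group, so the counts called for these lists carry that selection.

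In non-regenerative digits at 0 h, taken at the time of amputation, the members spanned 2.46 to 94.5 normalized TPM on average. Nfkbia was highest (94.5), then Nfkb1 (40.5), Nfkbiz (29.6) and Birc3 (16.4), and Tnfaip3 (3.01) and Nfkbie (2.46) were lowest. Nfkb1 made up 52.9% ± 3.2 (SD, n = 3) of the 5 subunits' summed level and Nfkb2 7.53% ± 1.8. The counts behind the lowest values were few, for example 23 to 29 for Nfkbie and 24 to 38 for Bcl3 at 0 h.

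After amputation, Bcl3 gave the largest and most stable change of the members in non-regenerative digits. It was at 7.75, 7.41 and 5.73 normalized TPM at 0 h, 25.7, 17.1 and 85.8 at 3 h, 65.7, 73.6 and 69.4 at 6 h, 71.3, 76.1 and 69.7 at 12 h, and 42.6, 48.0 and 58.1 at 24 h. All digits from 3 h to 24 h were above all those at 0 h. At 3 d it was 16.2, 16.6 and 25.2, at 7 d between 0 and 10.5 in 5 digits, and at 21 d 2.97, 7.50 and 6.33, so that 7 d and 21 d overlapped 0 h. At 14 d it was 12.3, 89.5 and 57.6, with the highest value in the digit that stood apart. In TMM-scaled counts these digits were at 8.35, 37.3 and 51.9, with the highest value in the third. The log2 fold change over 0 h was 3.98 ± 0.25 at 6 h (15.7-fold, edgeR adjusted p = 0.000596), 3.70 ± 0.24 at 12 h (13.0-fold, adjusted p = 0.000231) and 3.38 ± 0.25 at 24 h (10.4-fold, adjusted p = 0.000215). At 6 h, 12 h and 24 h alike, omitting any 1 of the 6 digits compared left the call in place. In normalized TPM, the means over all digits were 9.99, 10.39 and 7.12 times that at 0 h at 6 h, 12 h and 24 h. By this measure, within the earlier date period alone, the mean at 6 h was 8.99 times that of the 0 h digit. Within the later period it was 10.6 times, and at 24 h these ratios were 6.50 and 7.31. At 12 h, where the later period has no digit, the ratio in the earlier period was 9.34.

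**Figure D4:**
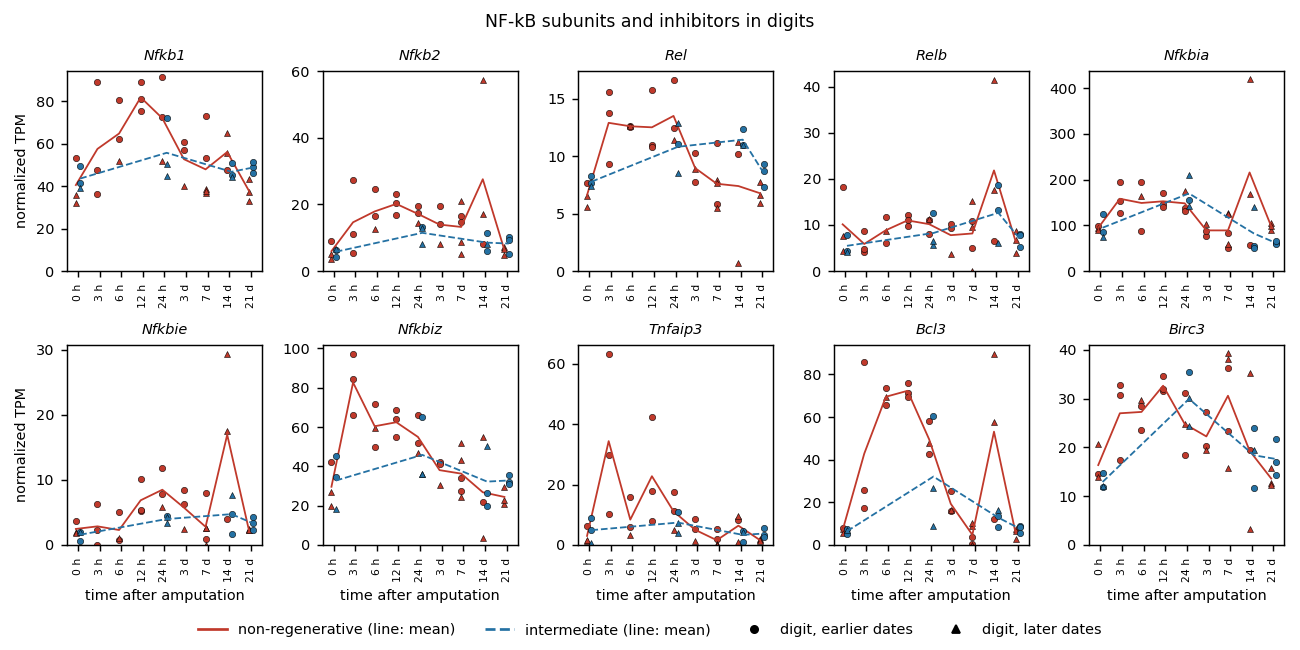
Normalized TPM of each member (y axis, linear from 0) by time after amputation (x axis, time points in order and not to scale) in single digits, as circles for earlier and triangles for later dates, with lines through the group means of non-regenerative and intermediate digits. The Bcl3 points from 6 h to 24 h lie at 42.6 to 76.1 in non-regenerative digits, above all 0 h points, and the digit that stood apart at 14 d lies far from its group for most members.

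The other members were called at fewer times and with smaller changes. At 3 h no member was called by edgeR, where 0% of genes were. At an unadjusted p below 0.05 there were 5 members against 10.8% of genes, and DESeq2 called 3, Nfkbiz, Tnfaip3 and Bcl3, against 1.56%. Nfkbiz was at 66.0, 97.3 and 84.7 normalized TPM at 3 h, with the highest median of any time, against 42.0, 26.9 and 20.0 at 0 h, with a log2 fold change of 1.57 ± 0.30 (edgeR adjusted p = 0.217). Tnfaip3 was at 29.8, 10.2 and 63.2 at 3 h against 6.13, 1.26 and 1.63 at 0 h, with 2.41 ± 0.58 (adjusted p = 0.282). Bcl3 differed by 2.27 ± 0.50 (adjusted p = 0.269). For 5 members, these 3 with Rel and Nfkbia, the 3 h digits stood wholly above 0 h, against 8.07% of genes. In normalized TPM, however, the 3 h digits varied widely for Tnfaip3 and Bcl3, and the third digit had the fewest counts. In TMM-scaled counts the 3 h digits lay closer together. They were at 47.8, 30.9 and 49.0 for Tnfaip3 and at 13.9, 13.7 and 28.9 for Bcl3. Without the first 0 h digit, Nfkbiz (1.86) and Tnfaip3 (3.39) were called at 3 h.

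At 6 h 2 members were called higher, Bcl3 and Nfkb2, against 3.23% of all genes, and none lower. Nfkb2 was at 24.7, 16.4 and 12.5 normalized TPM at 6 h against 9.16, 3.48 and 5.27 at 0 h, a log2 fold change of 1.65 ± 0.38 (3.14-fold, edgeR adjusted p = 0.0440). This call was lost in 5 of the 6 fits that left out 1 digit, so Bcl3 alone remained in them all. Rel (0.99, adjusted p = 0.0209) fell just short of 2-fold, and Nfkbiz (1.09, adjusted p = 0.0535) just short of the adjusted p. Without the first 0 h digit 5 members were called.

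At 12 h 7 members were called higher, against 6.76% of all genes, and none lower, the largest number of any time point. These were Bcl3, Tnfaip3, Nfkb2, Nfkbie, Nfkbiz, Nfkb1 and Birc3, from 13.0-fold down to 2.13-fold, and the median over the 10 members was 1.118 on the log2 scale, with -0.0319 over all genes. Of the subunits, Nfkb1 was at 81.0, 75.5 and 89.0 normalized TPM against 53.4, 36.0 and 32.1 at 0 h (1.09 ± 0.19, edgeR adjusted p = 0.00877). Nfkb2 was at 16.8, 20.5 and 23.2 (1.83 ± 0.33, 3.57-fold, adjusted p = 0.00994). Rel was at 10.96, 10.8 and 15.7 against 7.67, 6.56 and 5.58 (0.98, adjusted p = 0.0168), without overlap but under 2-fold. Relb was the member with overlapping groups, at 9.71, 12.2 and 11.1 against 18.3, 4.39 and 7.71 (0.67, adjusted p = 0.311). The other 9 stood wholly above 0 h, against 18.1% of genes.

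Of the inhibitors at 12 h, Nfkbia, already the most abundant member at 0 h, was at 147, 140 and 171 normalized TPM against 99.3, 94.8 and 89.5, a clear separation of the groups with a modest change (0.75 ± 0.15, 1.68-fold, edgeR adjusted p = 0.0129) that was under the fold threshold. Nfkbie was at 10.2, 5.16 and 5.30 against 3.64, 1.99 and 1.77 (1.56 ± 0.46, adjusted p = 0.0472). Nfkbiz was at 64.0, 55.0 and 68.5 (1.14 ± 0.26, adjusted p = 0.0197). Tnfaip3 was at 42.5, 8.06 and 17.8 (2.05 ± 0.58, 4.15-fold, adjusted p = 0.0427), with a wide spread of normalized TPM at 12 h. In TMM-scaled counts its 12 h digits lay closer together, at 38.65, 19.6 and 39.8. Birc3 was at 31.5, 34.6 and 31.9 against 14.5, 13.9 and 20.7 (1.09 ± 0.23, 2.13-fold, adjusted p = 0.0157).

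These 12 h calls changed with the digits in the fit. The number called was 2 without the second or the third 0 h digit or without the third 12 h digit, and 9 without the first 0 h digit, and only Bcl3 and Nfkb2 were kept in all 6 such fits. By date, all 12 h digits are of the earlier period and 2 of the 3 digits at 0 h of the later one. At 0 h, over both groups, the later digits were lower for Nfkb1 (32.1 to 39.3 against 41.7 to 53.4 normalized TPM), Rel (5.58 to 7.36 against 7.66 to 8.28), Nfkbiz (18.2 to 26.9 against 34.7 to 45.4) and Tnfaip3 (0.816 to 1.63 against 4.90 to 9.02), with no overlap. The share of all genes that separated by date is not given here. Within the earlier period, against its 1 digit at 0 h, the 12 h means were 1.53 times as high for Nfkb1, 2.20 times for Nfkb2, 1.89 times for Nfkbie, 1.49 times for Nfkbiz, 3.72 times for Tnfaip3 and 2.25 times for Birc3, and 0.600 times for Relb, against a fitted log2 fold change of 0.67 for Relb over all 0 h digits. A fit over all digits called 1, 2 and 1 members at 6 h, 12 h and 24 h, and the same fit with the date period as a term 1, 1 and 1, Bcl3 each time. Without the pair of digits that stood apart, the fit over all digits called 3, 5 and 3. The shares of all genes called in these fits, and in those at each time without 1 digit, are not given here.

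At 24 h 4 members were called higher, Bcl3, Nfkbie, Nfkb2 and Rel, against 5.57% of all genes, and none lower. Without a fold threshold 8 passed, against 16.8%. Nfkbie was at 7.80, 5.90 and 11.8 normalized TPM (1.87 ± 0.41, 3.65-fold, edgeR adjusted p = 0.0191), Nfkb2 at 17.5, 14.5 and 19.5 (1.60 ± 0.33, adjusted p = 0.0156) and Rel at 12.4, 11.4 and 16.6 (1.09 ± 0.21, adjusted p = 0.0114). Each of these stood above all its 0 h digits, as did 6 members in all, against 16.2% of genes. Nfkb1 (0.95), Nfkbiz (0.96), Birc3 (0.80) and Nfkbia (0.70) passed the adjusted p at less than 2-fold, and Tnfaip3 (1.67, adjusted p = 0.0947) and Relb (0.59, adjusted p = 0.401) did not pass it. The number called was 1 without the third 0 h digit, 2 without the first or the third 24 h digit and 8 without the first 0 h digit. Rela was called at 12 h (1.077, adjusted p = 0.0113) and at 24 h (1.04, adjusted p = 0.0110).

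**Figure D5:**
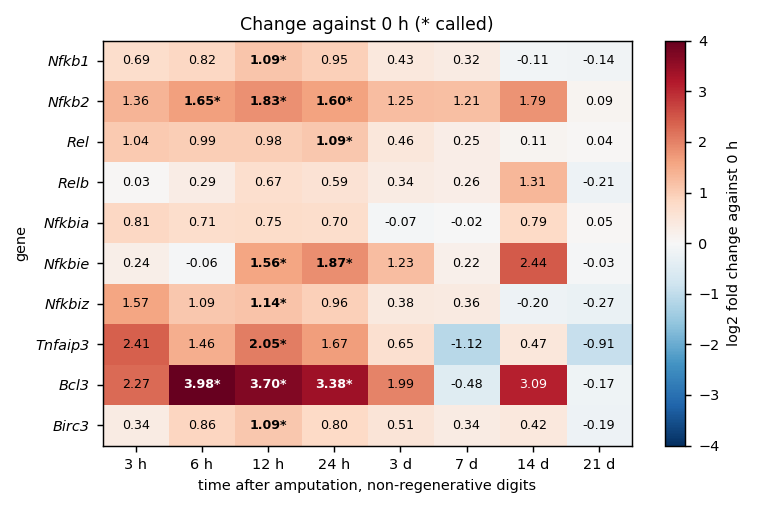
Log2 fold change against 0 h (colour and printed value) of each member (rows) at each later time in non-regenerative digits (columns), with an asterisk where edgeR called the member. Asterisks stand at 6 h, 12 h and 24 h only, with 7 of 10 members at 12 h and Bcl3 at all 3 times.

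Markers of other cell types moved with these changes. The summed level of 6 neutrophil markers was 20.4 to 25.2 normalized TPM at 0 h, 185 to 252 at 6 h, 408 to 1138 at 12 h and 1134 to 1299 at 24 h, with all 6 above 0 in each of these groups. That of 6 macrophage markers was 110 to 222 at 0 h, 56.5 to 146 at 6 h, 169 to 255 at 12 h and 62.3 to 245 at 24 h, overlapping 0 h each time. The 5 keratinocyte markers overlapped between 0 h and 12 h, at 26820 to 55460 and 24430 to 30100, and the 5 fibroblast markers at 1296 to 2316 and 768 to 1326, but fibroblast markers at 24 h, at 536.5 to 1270, lay below all 0 h digits. The 5 dendritic cell markers were at 1.47 to 4.10 at 0 h and above that at 12 h, at 6.69 to 11.0, and overlapped 0 h at 6 h and 24 h. The 4 B cell markers, at 8.44 to 17.5 at 0 h, were lower without overlap at 6 h (0 to 1.80), 12 h (1.65 to 7.98) and 24 h (0 to 0.489). The 4 T cell markers, at 4.45 to 9.57 at 0 h, were lower without overlap at 6 h (0.832 to 3.26) and 24 h (0.555 to 1.76). The 4 muscle markers were lower at 12 h (4.18 to 6.50 against 7.19 to 27.5), and osteoblast and endothelial markers overlapped 0 h at 6 h, 12 h and 24 h. The part of these cell types in the changes of the members was not tested.

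From 3 d on, edgeR called no member against 0 h. At 3 d 2 members had an unadjusted p below 0.05, against 11.1% of genes, while 0.723% of all genes were called, and DESeq2 called Bcl3, against 3.39%. The Bcl3 value was 1.99 ± 0.39 (edgeR adjusted p = 0.0726), still above 0 h in every digit. At 7 d no member had an unadjusted p below 0.05, against 4.34%, and none was called, against 0.0537%, with DESeq2 calling none as well. At 14 d there were 3 members at an unadjusted p below 0.05 against 7.70% of genes and none called against 0%, while DESeq2 called Nfkbie and Bcl3, against 2.61%. In normalized TPM, the 14 d digit that stood apart was the extreme of all digits for most members. Its Nfkb2 (57.4), Relb (41.4), Nfkbia (420), Nfkbie (29.3) and Bcl3 (89.5) were highest, and its Rel (0.740), Nfkbiz (3.63) and Birc3 (3.33) lowest. Its normalized TPM summed to 3362791, the highest sum of all digits. In TMM-scaled counts its Bcl3, at 37.3, lay below that of the third 14 d digit, at 51.9. The other genes named kept their places in these counts, and its Nfkb1, at 16.96, was the lowest of all digits. Bcl3 at 14 d was 3.09 ± 0.75 with this digit (edgeR adjusted p = 0.280) and 2.97 without it (adjusted p = 0.110). At 21 d none was called, against 0.452%, none had an unadjusted p below 0.05, against 7.20%, and DESeq2 called none.

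Between consecutive times no member was called by edgeR in any of the 4 windows. From 3 h to 6 h 1 member had an unadjusted p below 0.05 (13.3% of genes, with 0.106% called), Bcl3 at 1.70 ± 0.35 (edgeR adjusted p = 0.103), and DESeq2 called it (2.99% of genes). From 6 h to 12 h 1 member had an unadjusted p below 0.05 (11.4% of genes, with 0.0641% called), and from 12 h to 24 h none had (9.46% of genes, with 0% called). DESeq2 called none in these 2 windows. From 24 h to 3 d, 4 members had an unadjusted p below 0.05 (18.7% of genes, with 2.76% called) and DESeq2 called 1 (5.77% of genes), Bcl3, which edgeR put at -1.35 ± 0.32 (adjusted p = 0.0543). Its 3 d values of 16.2 to 25.2 lay below its 24 h values of 42.6 to 58.1.

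A single test over all 8 later times in the 29 non-regenerative digits called Bcl3 (edgeR adjusted p = 7.57e-05) and no other member, against 7.62% of genes, and Bcl3 ranked 70 of 14434 genes tested. Nfkbiz and Tnfaip3 came next, with adjusted p of 0.0959 and 0.0934. Without the pair of digits that stood apart, a setting chosen after seeing the data, 6 members were called against 20.4% of genes. These were Bcl3 (adjusted p = 2.77e-06), Nfkbiz (0.000447), Rel (0.00273), Nfkb1 (0.0183), Tnfaip3 (0.0228) and Nfkb2 (0.0436). Without the 14 d digit alone there were 4 (Bcl3, Nfkbiz, Rel and Nfkb1), where 1630 of 14818 genes were called. Without the 7 d digit alone there were 2 (Bcl3 and Tnfaip3), where 2073 of 14536 genes were. Leaving out the first or the third 14 d digit gave 2 and 3, where 1910 of 14826 and 1765 of 14863 genes were called.

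In intermediate digits no member was called against 0 h at any time. At 24 h 6 had an unadjusted p below 0.05, against 15.4% of genes, with 0.0152% called, and DESeq2 called Bcl3 and Birc3, against 2.65%. Bcl3 was at 60.3, 9.07 and 26.9 normalized TPM at 24 h against 6.90, 7.27 and 5.20 at 0 h, all above but widely spread (2.17 ± 0.45, edgeR adjusted p = 0.1196). Birc3 was at 35.4, 24.3 and 30.1 against 12.2, 14.8 and 11.8, a tighter separation (1.16 ± 0.24, adjusted p = 0.1196). The neutrophil marker sum of these 24 h digits was 141 to 1350, against 18.8 to 40.8 at 0 h. At 14 d 3 members had an unadjusted p below 0.05, against 13.4% of genes, with 1.68% called. At 21 d 2 had one, against 16.6%, with 1.39% called. DESeq2 called none at 14 d and 21 d.

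Intermediate and non-regenerative digits were compared at the 4 shared times, and edgeR called no member. At 0 h none had an unadjusted p below 0.05 (3.64% of genes, with 0% called), and all 10 members overlapped, where 5.07% of genes stood wholly above and 4.08% wholly below. At 24 h 3 had one (11.3% of genes, with 0% called), Nfkbie at -1.10 ± 0.36 (edgeR adjusted p = 0.376), Bcl3 at -1.06 ± 0.40 (adjusted p = 0.400) and Nfkb2 at -0.59 ± 0.25 (adjusted p = 0.434). In normalized TPM the non-regenerative Bcl3 values of 42.6 to 58.1 lay within the intermediate range of 9.07 to 60.3. In TMM-scaled counts the groups did not overlap. There the intermediate digits were at 31.0, 8.46 and 17.1, and the non-regenerative ones at 32.8, 43.1 and 43.1. Of the 6 fits without 1 digit, only that without the first intermediate digit, the one at 60.3, called a member. It was Bcl3, at -1.58 (edgeR adjusted p = 0.0263). The share of all genes called in that fit is not given here. The digit left out is the only intermediate one of the earlier date period at 24 h. That fit thus set later intermediate digits against non-regenerative digits of both periods. At 14 d 1 member had an unadjusted p below 0.05 (2.0% of genes, with 0% called), and at 21 d 2 had (14% of genes, with 0.648% called). Nfkbia at 21 d was at 60.5, 58.3 and 66.6 in intermediate digits against 105, 88.8 and 99.5 in non-regenerative ones, without overlap (-0.72 ± 0.13, edgeR adjusted p = 0.0564). In the other direction, Nfkb1, Nfkbiz and Tnfaip3 stood wholly higher in intermediate digits at 21 d. Of all genes, 10.9% stood wholly above and 9.67% wholly below. At 21 d all intermediate digits are of the earlier and all non-regenerative ones of the later date period, so group and date cannot be told apart. DESeq2 called no member at any of the 4 times.

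The difference between the groups in the change from 0 h was tested as an interaction. No member was called at 24 h, 14 d or 21 d, where 0%, 0% and 0% of genes were. At an unadjusted p below 0.05 there were 1, 1 and 2 members, against 8.09%, 3.59% and 5.92% of genes. At 24 h this was Bcl3, whose change was smaller in intermediate digits by 1.21 ± 0.53 on the log2 scale (a difference of -1.21, edgeR adjusted p = 0.609). At 14 d it was Bcl3 again (-2.41 ± 0.79), a time with the digit that stood apart, and at 21 d, where the groups differ in date period throughout, Nfkbia (-0.68 ± 0.24) and Birc3 (0.83 ± 0.25).

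Across the 41 digits the members were related to each other to different degrees. Spearman's rho over the 45 pairs of members ran from 0.101 to 0.806 with a median of 0.468, and without the pair of digits that stood apart from 0.161 to 0.897 with a median of 0.571. The highest was that of Nfkb1 with Nfkb2. The digits share time points, dates and tissue composition, so these values describe the libraries and carry no test. Of 13691 genes with a mean of at least 1 normalized TPM, the one most like Nfkbiz was Il6, the cytokine (rho 0.881, and 0.873 without the pair). The closest to Nfkb1 was S100a11 (0.874) and to Bcl3 was Sbno2 (0.871). For the other members it was Chil1 for Nfkb2 (0.819), Agfg1 for Rel (0.811), Pym1 for Nfkbia (0.811), Nup98 for Tnfaip3 (0.803), B4galnt1 for Nfkbie (0.769), Eif1a for Birc3 (0.728) and Dbndd2 for Relb (0.692).

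The other pathway genes were counted in non-regenerative digits by the same lists. At 6 h, where 3.23% of all genes were called higher, the calls against 0 h were 2 higher (Zc3h12a at 1.26 and Tnip2 at 1.04) and 1 lower (the deubiquitinase Cyld, at -1.11) of 10 further subunit and inhibitor genes tested. Of 26 kinases and adaptors 4 were higher, Map3k14 (1.69), Myd88 (1.48), Irak3 (1.46) and Tirap (1.069), and none lower. Of 2 ligands tested both were higher, Il1b (3.99) and Il1a (1.71), no receptor of 11 was called, and 4 of 13 targets were higher, including Il6 (4.44), Ptgs2 (4.05) and Cxcl1 (3.86).

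At 12 h, with 6.76% of all genes called higher, 3 of 10 further subunit and inhibitor genes were higher, Zc3h12a (1.51) and Rela among them, and none was lower. So were 3 of 26 kinases and adaptors, including Myd88 (1.35) and Irak3 (1.107). Of 4 ligands tested, out of 9 listed, 3 were higher, including Il1b (6.53) and Il1a (2.68). So were 4 of 11 receptors, including Cd14 (4.71), Tnfrsf1b (2.25) and Ltbr (1.28). Of 16 targets tested, out of 20 listed, 10 were higher and none lower, including Cxcl2 (6.01), Il6 (5.10) and Ptgs2 (4.88). Ccl2 went from a mean normalized count of 2.04 to 290.5. At 24 h, with 5.57% of all genes called higher, 2 of 10, 1 of 26 (Myd88, 1.10), 2 of 3, 2 of 11 and 9 of 16 were higher in these lists, and 1 receptor, Tnfrsf11a (-1.14), was lower. Among those higher were Il1b (6.14), Il1a (1.85), Cd14 (4.18), Ltbr (1.42), Cxcl2 (5.46), Mmp9 (4.79), Il6 (4.67) and Ptgs2 (4.56). Median log2 fold changes of these 5 lists were 0.693, 0.0768, 2.85, 0.751 and 1.60 at 6 h, 0.346, 0.458, 4.60, 0.680 and 3.96 at 12 h, and 0.419, 0.318, 2.95, 0.496 and 4.20 at 24 h. With genes at or under 3 counts in every library of a group set to that floor, those of ligands and targets at 12 h were 2.90 and 3.49, and that of targets at 24 h was 3.11. The floor applied to 1 ligand and 3 targets at 12 h and to 3 targets at 24 h. These genes could enter the test only through their other group, so the counts of ligands and targets called carry that selection.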

How the data were processed

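RNA-seq tables of 9 macrophage libraries and 41 digits were analysed. The authors aligned single-end reads of poly(A) libraries to mouse genes (mm10) with Bowtie and deposited the expected count per gene from RSEM 1.2.3, without normalization. The authors also deposited a signal, TPM put on a common scale with the median-by-ratio method, whose sums (786283 to 3362791) show that it is no longer plain TPM. CASAVA is named in the submitters' processing notes. The 10 members, the pathway lists and the marker lists were chosen with earlier results of these data known.

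Expected counts were rounded, and the libraries of each 2 groups were tested with edgeR 4.0.16 in R 4.3.3 (filterByExpr, TMM, glmQLFit, glmQLFTest). Calls needed an adjusted p (Benjamini-Hochberg, all genes tested) under 0.05 and, for mean normalized counts with 1 added, more than a 2-fold change. The study used EBSeq, which was not installed, with the same thresholds. M1, M2 and each later time were compared with M0 or 0 h, M1 with M2, consecutive times as pairs, and the intermediate digits with the non-regenerative ones, also as an interaction. Alternatives were DESeq2 1.42.0, RLE scaling, no filter, no fold threshold, 1 fit over all digits, the date period as a term, a replicate block and leaving out each library of a comparison (in the time course test each 14 d digit). Scripts were tested on simulated data. Levels, order, shares and Spearman's rho (Python 3.11.15, pandas 2.3.3, numpy 2.4.6) are descriptions.

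All 10 members were named in every comparison. From the pathway lists up to 4 called genes per list and comparison were named, by absolute log2 fold change among those with a mean normalized count of at least 100, and for each member the gene with the highest rho. In the tables of digits, dates that had replaced 26 gene names were turned back, and 0 columns were left without a sample. Library totals ran from 1468749 to 13011782 in digits and 15683424 to 27904773 in macrophages, and floors cover counting error only. Standard errors of log2 fold changes came from the edgeR test and include the spread between libraries. No 2 replicates agreed within counting error, with a chi-square per degree of freedom of 3.051 to 411.4 over 55 pairs. Macrophage libraries of the same number did not deviate together (r of -0.0747 to 0.0664 over 9 pairs), so the numbers were not taken to pair them. Regenerative digits were not analysed here.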

Additional observations from a re-analysis of the deposited data

How the results depend on the processing

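No called value turned its direction under an alternative. Values not called did, in 31 of 1480 cases, and in 103 of 1340 when 1 library was left out. Between edgeR and the ratio of mean normalized TPM 12 of 220 values differed in sign, none of them called, among them Relb at 3 h (0.03 against -0.79), 6 h (0.29 against -0.19) and 3 d (0.34 against -0.38) and Nfkb1 at 14 d (-0.11 against 0.47). Scaling by RLE and the replicate block changed no call (members called in M1 against M0, M2 against M0 and M1 against M2 under the replicate block: 10, 4 and 7). Without the fold threshold 10 members passed in M2 against M0 and 8 at 24 h. DESeq2 called 3 at 3 h, 3 at 6 h, 5 at 24 h, 1 at 3 d, 2 at 14 d, 1 from 3 h to 6 h, 1 from 24 h to 3 d and 2 in intermediate digits at 24 h, and no filter on low counts gave 3 at 6 h, 1 at 3 d and 1 in each of these 2 windows. Of all genes tested, DESeq2 called 1113 of 13168 at 6 h and 1828 of 13420 at 24 h. With all digits in 1 fit, 1, 2 and 1 members were called at 6 h, 12 h and 24 h and 2 at 14 d, and with the date period as a term 1, 1, 1 and 2. Without the pair of digits that stood apart, chosen after seeing the data, the fit over all digits called 3 at 3 h, 3, 5 and 3 at 6 h, 12 h and 24 h, 1 at 14 d, 1 from 3 h to 6 h and 1 in intermediate digits at 24 h, and the time course test 6, and 2 without the 7 d digit alone. Why these fits differ was not tested. Leaving out 1 library gave 0 to 2 members at 3 h, 1 to 5 at 6 h, 2 to 9 at 12 h, 1 to 8 at 24 h, 0 to 1 at 3 d (1 without the second 3 d digit), 0 to 1 from 3 h to 6 h (1 without the third 3 h digit), 0 to 1 from 24 h to 3 d (1 without the second 3 d digit), 0 to 1 in intermediate digits at 24 h (1 without the second 24 h digit), 0 to 1 between the groups at 24 h, and 2 to 4 in the time course test, where each 14 d digit and the second 7 d digit were left out. Of 1340 results on single members in these fits, 33 lost and 19 gained a call. For comparisons of 2 groups, the shares of all genes called over all digits, without the filter or without 1 library are not given here. Of 150 ratios of mean levels, 138 moved by less than the replicate spread between normalized TPM and TMM-scaled counts, and 12 moved by more. Depth limits Nfkbie, Bcl3, Relb and Tnfaip3 in digits, where counts at 0 h were low.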
